A study of Mus musculus with 4 samples.

Results

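Histones are marked by enzymes that add methyl or acetyl groups to lysines of their tails (writers) and by enzymes that remove them (erasers). The genes described here are the mouse histone lysine demethylases, methyltransferases, deacetylases and acetyltransferases. They were chosen by name: the Kdm, Kmt2, Kmt5, Setd, Prdm, Hdac, Kat, Nsd and Sirt symbols with Uty, Suv39h1, Dot1l, Ep300 and Crebbp, with 3 genes left out by the same rule. This gave 76 of the 15733 genes in the table: 17 demethylases, 22 methyltransferases, 11 PRDM proteins, 16 deacetylases and 10 acetyltransferases. Kdm5c, Kdm6a and Suv39h1 are X-linked, Uty is Y-linked, and the other 72 are autosomal. The rule uses names alone.

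The mRNA came from mouse testis cells. Dissociated testis cells were cultured for 12 h with BMH21 at 2.5 µM or with DMSO alone (mock), and pachytene spermatocytes were then sorted on the DNA dye Hoechst. BMH21 intercalates into DNA and inhibits transcription by RNA polymerase I. There were 2 biological replicates per condition, 4 libraries in all, and no strain, age or genotype is stated in the labels.

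Pachytene is the stage of meiosis at which paired autosomes are fully synapsed and the X and Y, which pair over a short region, are gathered in the XY body and transcriptionally silenced. Histone marks are known parts of both states: H3K9 methylation accumulates on the silenced sex chromosomes, and H3K4 methylation marks active promoters and recombination sites. Several writers and erasers are themselves encoded on the X or the Y and have an autosomal paralog that is active in the germ line.

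Each library held 30964370 to 41548269 read counts over the listed genes, of which 0.680% to 0.702% fell on the 76 members. The replicates of a condition differed by more than counting error (a chi-square of 3.21 per degree of freedom between the mock libraries and 3.71 between the BMH21 libraries), so each was taken as a sample of its own. Levels are in CPM, the counts scaled to a common library size, here with TMM factors. Pachytene markers such as Ldhc and Sycp1 summed to 8388 to 8535 CPM in the mock and 8584 to 8722 CPM in the BMH21 libraries, with 4 of 10 higher and 4 lower in BMH21. The round spermatid list summed to 209 to 213 against 218 to 221 CPM with 0 of 8 called, and the list for spermatogonia and early meiosis to 17.9 to 19.4 against 14.1 to 16.9 CPM with 2 of 5 tested genes lower. Leydig markers summed to 9.13 to 9.54 against 6.49 to 7.26 CPM (1 of 2 lower), macrophage markers to 6.10 to 6.88 against 5.37 to 5.86 CPM (0 of 3 called), Sertoli markers to 1.73 to 2.48 against 0.918 to 2.05 CPM and peritubular and endothelial markers to 1.91 to 1.95 against 1.81 to 2.40 CPM (0 of 2 called in each). Of the defining markers, Sox9, Wt1, Gata4, Cldn11 and Rhox5 (Sertoli), Cyp11a1 and Hsd3b1 (Leydig) and Stra8 (entry into meiosis) are not analysed here. The part of these other cells in the results was not tested.

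The sex-linked enzymes carried the largest changes, so the sequence just before their start sites is shown, from RefSeq on GRCm38.p6. The 250 bases before the start are given 5′ to 3′ on the gene's own strand. Capitals mark matches to the motifs searched on both strands, which were the GC box GGGCGG, the CCAAT box, the TATA box TATAAA, the CRE core TGACGT, the ETS core CCGGAAG, the ZFX core AGGCCT and the E-box CACGTG. The E-box was added after the sequences had been seen. The windows are chrX:18162325-18162574 for Kdm6a (plus strand), chrY:1245760-1246009 for Uty (minus strand) and chrX:8074761-8075010 for Suv39h1 (minus strand), each ending at the base next to the GENCODE start of the gene.
Kdm6a: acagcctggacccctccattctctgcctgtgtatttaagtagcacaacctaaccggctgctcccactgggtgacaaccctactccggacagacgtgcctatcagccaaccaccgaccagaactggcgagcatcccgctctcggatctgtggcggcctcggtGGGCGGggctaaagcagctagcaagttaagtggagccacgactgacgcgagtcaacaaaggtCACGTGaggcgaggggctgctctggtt
Uty: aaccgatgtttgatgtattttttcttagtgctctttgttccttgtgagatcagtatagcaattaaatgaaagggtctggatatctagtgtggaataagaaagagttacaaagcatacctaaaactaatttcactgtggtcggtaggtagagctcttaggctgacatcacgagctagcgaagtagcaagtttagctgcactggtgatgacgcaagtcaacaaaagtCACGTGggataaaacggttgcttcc
Suv39h1: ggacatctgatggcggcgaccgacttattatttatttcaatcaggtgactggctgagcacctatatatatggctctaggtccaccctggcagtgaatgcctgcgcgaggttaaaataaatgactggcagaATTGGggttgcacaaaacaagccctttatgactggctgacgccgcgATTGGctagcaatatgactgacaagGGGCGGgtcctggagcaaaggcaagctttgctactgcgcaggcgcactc

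Kdm6a and Uty are an X and Y pair descended from 1 ancestral gene, and their windows shared letters near the start. The longest shared run, agtcaacaaa, has 10 letters and begins 40 bases before the start in Kdm6a and 38 in Uty. The run gtcacgtg, which holds the E-box, begins 29 bases before the start in Kdm6a and 27 in Uty, and the run tagcaagtt at 71 and 69. The run aagtagca, of 8 letters, is also shared but out of register, at 214 bases in Kdm6a and 72 in Uty. Whether any of these runs is retained from the ancestral gene was not tested. An E-box is found in 6.02% of all 32851 RefSeq promoter windows of this length and in 4 of the 57 members with such a window (Kat5, Kdm6a, Sirt1 and Uty). Some members' windows lie far from the GENCODE start, that of Sirt1 42669 bases away and that of Prdm1 69753. Suv39h1 held 1 GC box and 2 CCAAT boxes, the latter in the reverse orientation (ATTGG). The Kdm5c window overlaps the GENCODE gene and is not printed. It held 1 CCAAT box and none of the other motifs. None of the 4 windows held a TATA box, which occurs in 12.4% of all windows and in 1.75% of the members' windows. GC boxes (56.1% of member windows, 32.7% of all) and CCAAT boxes (47.4% and 33.9%) were more frequent among the members, whose windows had a median GC content of 59.6% and a median of 15 CpG dinucleotides, against 52.4% and 6 for all windows. Each member has only its window nearest the GENCODE start, while all RefSeq windows entered the background, so the sets are not alike. These are letter matches and no measure of binding.

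Suv39h1, Kdm5c, Kdm6a and Uty were low in the mock libraries, from 0 CPM for Uty to 4.42 CPM for Kdm5c, and rose in both BMH21 libraries. Suv39h1 reached 181 and 184 CPM, Kdm5c 125 and 125 CPM, Uty 7.37 and 5.83 CPM and Kdm6a 2.78 and 3.05 CPM. In bulk RNA, more expressing cells and more RNA per cell cannot be told apart. Rises from few mock counts have no reliable fitted error, so each is also given as a ratio of summed counts per library total with an exact 95% interval, which covers counting error only.

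Suv39h1 (X:8061171-8074760, minus strand, GRCm38) encodes a writer of H3K9 trimethylation known from pericentromeric heterochromatin. It had 85 and 92 counts in mock and 5992 and 6826 in BMH21, or 2.03 and 2.94 against 181 and 184 CPM. The groups were far apart and the replicates close. The count ratio was 74.1 (interval 63.9 to 86.4) and the log2 fold change 6.23 (adjusted p = 1.89e-61, edgeR quasi-likelihood test). The antisense gene Gm14820 overlaps 767 bases of its exons, and no source used here says whether reads were counted by strand.

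Kdm5c (X:152233020-152274535, plus strand) encodes a demethylase of H3K4me2 and H3K4me3. Its counts were 152 and 138 in mock and 4140 and 4625 in BMH21, which is 3.62 and 4.42 against 125 and 125 CPM. The count ratio was 30.9 (27.5 to 34.9) and the log2 fold change 4.97 (edgeR adjusted p = 2.25e-55). Per kilobase of exon it was the most abundant sex-linked member in mock and came after Suv39h1 in BMH21.

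Kdm6a (Utx, X:18162575-18279936, plus strand) encodes a demethylase of H3K27me3. It had 8 and 10 counts in mock against 92 and 113 in BMH21, or 0.191 and 0.320 against 2.78 and 3.05 CPM, a ratio of 11.6 (7.19 to 20.0). Its Y-linked partner Uty (Y:1096861-1245759, minus strand), whose protein has little or no demethylase activity, had 6 and 0 counts in mock and 244 and 216 in BMH21. Those are 0.143 and 0 against 7.37 and 5.83 CPM, and the 0 allows up to 3 counts, or 0.0960 CPM. The ratio for Uty was 78.4 (35.8 to 215). Fitted log2 fold changes were 3.54 for Kdm6a (edgeR adjusted p = 3.36e-10) and 6.28 for Uty (edgeR adjusted p = 1.91e-21), and the latter became 10.80 without mock replicate 1, where only the 0 was left. The pair can be told apart by reads: only 0.204% of Kdm6a's and 0.233% of Uty's 50-base words occur in any other gene, mostly in each other.

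The 4 sex-linked members moved with the tested genes of their chromosomes. Of 343 tested X-linked genes 73.2% were called higher, and of 10 tested Y-linked genes 90.0%. A further 89 X-linked and 28 Y-linked genes were listed but had too few counts to be tested. The filter can keep a gene on its BMH21 counts alone, which raises the share called higher among tested genes that are silent in mock. The median log2 fold change was 4.19 over the X-linked and 6.30 over the Y-linked genes, against 5.60 over these 4 members. By log2 fold change Suv39h1 ranked 57 and Kdm5c 132 of 343 on the X, with Kdm6a at 197, below the chromosome's median. By level in BMH21 Suv39h1 ranked 10 and Kdm5c 23 on the X. Uty ranked 6 of the 10 Y-linked genes by fold. In the authors' deposited table the 4 log2 fold changes were 6.21 for Suv39h1, 4.97 for Kdm5c, 3.54 for Kdm6a and 6.45 for Uty.

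**Figure D1:**
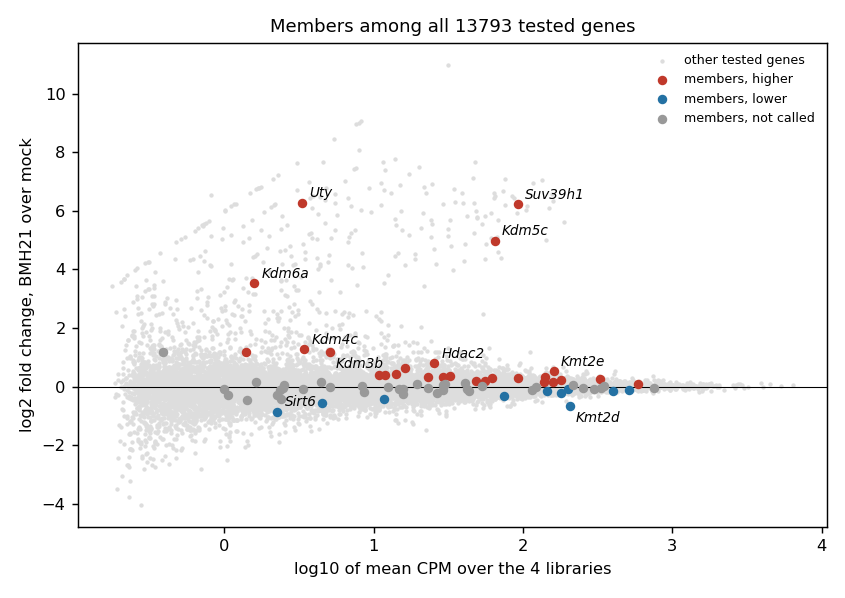
Log2 fold change of BMH21 over mock (vertical) against log10 of the mean CPM over the 4 libraries (horizontal) for all 13793 tested genes (light grey) and the 73 tested members, coloured by call. The 4 sex-linked members lie between 3.54 and 6.28, and the 69 autosomal members between -0.85 and 1.29.

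Counted together, the 4 sex-linked members made up 0.0885% (exact 95% interval 0.0779 to 0.100) and 0.114% (0.100 to 0.129) of all member counts in the 2 mock libraries. Their share was 4.48% (4.40 to 4.57) and 4.47% (4.39 to 4.55) in the BMH21 libraries. The remainder of the comparison is set against autosomal paralogs on a scale per length, CPM per kilobase of annotated exon.

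Among the Kdm5 demethylases of H3K4, Kdm5b stood at 34.8 and 33.8 CPM per kb in mock and 36.1 and 37.3 in BMH21, and Kdm5a at 8.78 and 8.86 against 11.0 and 11.2. Kdm5c moved from 0.510 and 0.621 to 17.6 and 17.6 CPM per kb, above Kdm5a and below Kdm5b in BMH21. In CPM, with no division by length, it stayed below Kdm5a, at 125 and 125 against 156 and 158. Its share of the 3 genes' summed level went from 1.30% ± 0.197 to 26.9% ± 0.434 (SD, n = 2), and the sum was 1.50 times that in mock. Without division by length the share in BMH21 was 14.0%.

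Among the H3K27 genes, autosomal Kdm6b was level at 2.26 and 2.08 against 2.12 and 2.01 CPM per kb. Kdm6a and Uty together went from 1.71% ± 0.121 to 33.0% ± 1.06 of the 3 genes' summed level (SD, n = 2), and Uty was the higher of the pair in BMH21 (0.752 and 0.595 against 0.331 and 0.364 CPM per kb).

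For the writers of H3K9 trimethylation the order reversed. Suv39h2, the autosomal paralog known as the testis form, is no member by the rule and stood at 1.28 and 0.922 CPM per kb in mock and 0.876 and 0.979 in BMH21 (log2 fold change -0.26 ± 0.198 SE, edgeR adjusted p = 0.376). Suv39h1 went from 0.384 and 0.559 to 34.3 and 35.0 CPM per kb. It made up 30.4% ± 10.4 of the pair's level in mock and 97.4% ± 0.167 in BMH21 (SD, n = 2), and the summed level was 22.6 times that in mock.

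**Figure D2:**
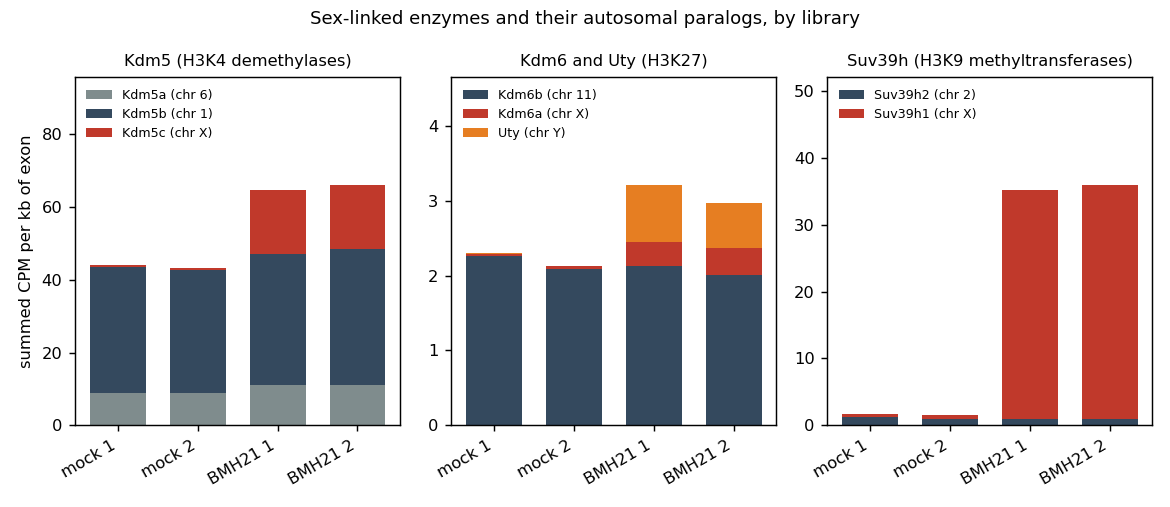
Summed CPM per kb of exon in each of the 4 libraries, stacked by gene, for Kdm5a, Kdm5b and Kdm5c (left), Kdm6a, Kdm6b and Uty (middle) and Suv39h1 and Suv39h2 (right), each panel with its own axis from 0. The X- and Y-linked parts make up 1.30%, 1.71% and 30.4% of the stacks in mock and 26.9%, 33.0% and 97.4% in BMH21 (group means).

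In all, 26 of the 73 tested members were called higher and 10 lower (edgeR adjusted p under 0.05 over all 13793 genes tested), 35.6% and 13.7%, where 16.5% of all genes were called higher and 12.5% lower. Prdm1, Prdm14 and Hdac7 had too few counts to be tested, with at most 0.567 CPM in any library. On autosomes 22 of 69 members were higher and 10 lower, 31.9% and 14.5%, against 15.1% and 12.8% of all autosomal genes. The median log2 fold change of the autosomal members was -0.00, and that of all autosomal genes -0.01. The split depends on the scaling: with upper quartile factors, which shift all log2 fold changes by a median of -0.05, 23 members were higher and 18 lower (19 and 18 on autosomes), so that 56.1% of called members were higher in place of 72.2%. Without mock replicate 1 or mock replicate 2 only 6 members were lower. Calls are described for a gene by its own values, since small changes of abundant genes pass the test. The 2 groups did not overlap in 52 of the 73 tested members and in 8397 of all 13793 tested genes. Such separation alone therefore sets no gene apart. With 2 replicates per group each p-value leans on the spread of other genes.

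**Figure D3:**
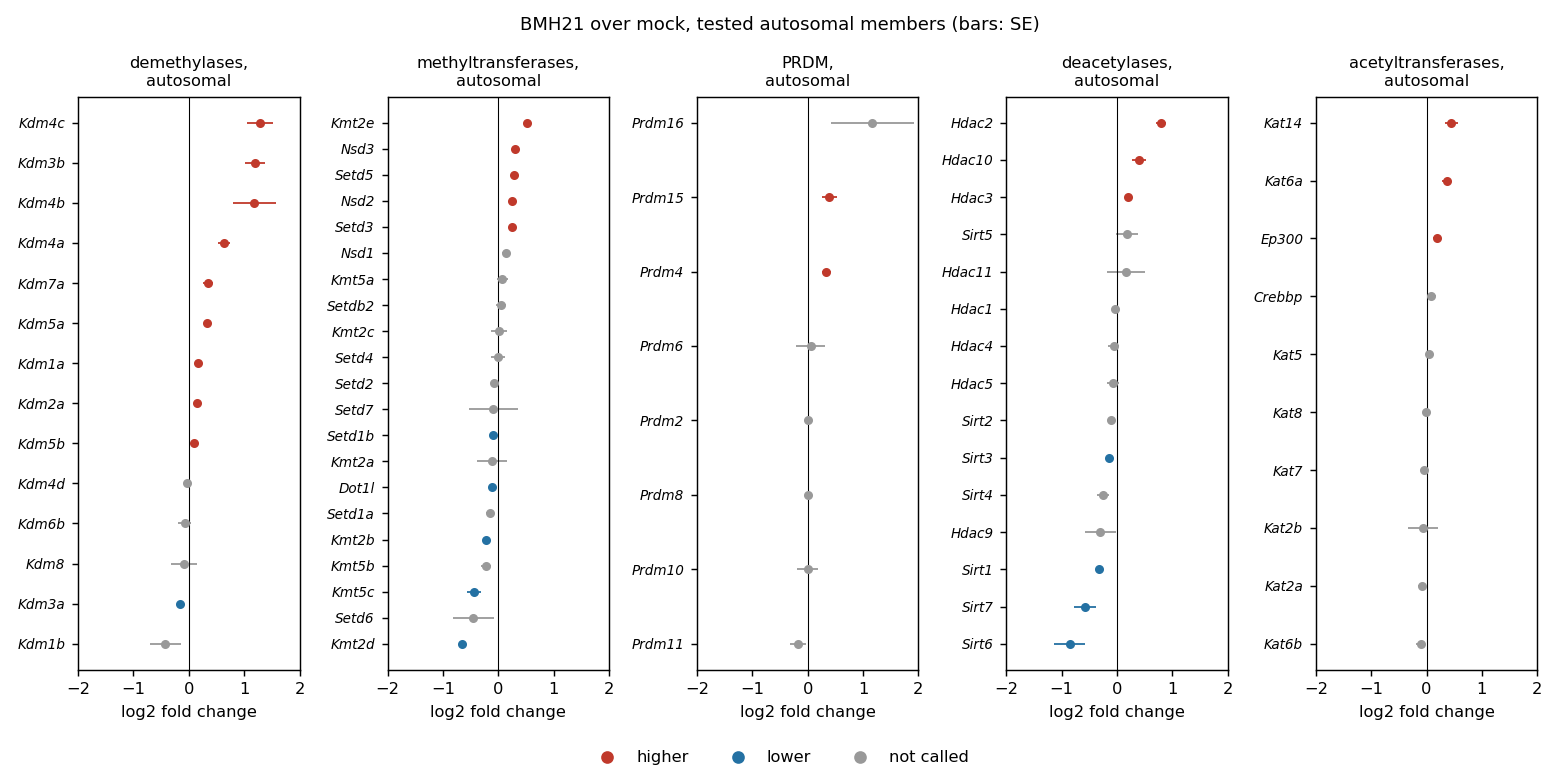
Log2 fold change of BMH21 over mock with its SE (bars) for the tested autosomal members named in the text, 1 panel per family, sorted by value and coloured by call (red higher, blue lower, grey not called). Of the 14 demethylases 9 were higher and 1 lower, and among the deacetylases the 4 genes called lower were all sirtuins. Over all autosomal genes 15.1% were higher and 12.8% lower.

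Demethylases were the family with the largest share of calls: 9 of 14 autosomal members rose and 1 fell, with a median log2 fold change of 0.15. These are 64.3% and 7.14%, against 15.1% and 12.8% of all autosomal genes. The changes of the demethylases ranged from small shifts of abundant genes to log2 fold changes over 1 in rare ones. Kdm5a, an H3K4 demethylase, stood at 124 and 125 CPM in mock and 156 and 158 CPM in BMH21 (log2 fold change 0.33 ± 0.039 SE, edgeR adjusted p = 1.64e-10). The groups did not overlap, and the shift of 25.9% was far larger than the gap between replicates.

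The rare demethylases of H3K9 had the largest folds among autosomal members. Kdm4c was at 2.34 and 1.63 CPM in mock and 4.44 and 5.34 CPM in BMH21, a log2 fold change of 1.29 ± 0.23 (edgeR adjusted p = 8.73e-06). Kdm3b was at 3.003 and 3.232 against 7.49 and 6.77 CPM, or 1.20 ± 0.19 (edgeR adjusted p = 4.17e-07), with 3468 bases of its exons overlapped by the antisense gene Gm26538. Kdm4b was at 0.810 and 0.896 against 2.23 and 1.65 CPM, or 1.18 ± 0.38 (edgeR adjusted p = 0.0134). These 3 genes had both BMH21 libraries above both mock libraries at levels of a few CPM or less. Kdm4a, of the same family and more abundant per kb, moved from 13.0 and 12.4 to 21.4 and 18.3 CPM (0.64 ± 0.11, edgeR adjusted p = 2.34e-06).

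Kdm3a went the other way. This H3K9 demethylase, known for its need in spermiogenesis, was the more abundant Kdm3 gene per kb, and it fell from 412 and 430 CPM to 369 and 380 CPM, a log2 fold change of -0.17 ± 0.028 (edgeR adjusted p = 1.41e-06). Kdm4d, a testis-rich H3K9 demethylase and the top demethylase by CPM per kb (88.7), was not called at 259 and 255 against 251 and 251 CPM. Its groups were apart, but the log2 fold change was -0.03 ± 0.031 (edgeR adjusted p = 0.483). Of its 50-base words, 11.0% are shared with other genes, most often Kdm4dl.

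Rises were also called for Kdm1a (LSD1, H3K4; log2 fold change 0.16), Kdm2a (H3K36; 0.15), Kdm7a (H3K9 and H3K27; 0.34) and Kdm5b (0.10). Kdm5b was the most abundant of them per kb, at 576 and 560 against 597 and 618 CPM. Its call was lost with upper quartile factors and without mock replicate 2. Kdm4b lost its call without mock replicate 1 or BMH21 replicate 1 (log2 fold changes 0.95 to 1.39 on leaving out each library), and Kdm2a without mock replicate 1. Kdm1b, Kdm6b and Kdm8 were not called, with overlapping groups and log2 fold changes of -0.42, -0.07 and -0.09.

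The methyltransferases split evenly: 5 of 21 autosomal members rose and 5 fell (5 and 8 with upper quartile factors, 5 and 3 without mock replicate 2), with a median log2 fold change of -0.07, which was 0.04 without mock replicate 1. The 5 each way are 23.8% of the family's autosomal members, where 15.1% of all autosomal genes were higher and 12.8% lower. The clearest change of any autosomal member was that of Kmt2d, the writer of H3K4 monomethylation at enhancers. It was at 255 and 252 CPM in mock and 167 and 155 CPM in BMH21. Both treated libraries lay far below both mock libraries, and the mean fell by 36.7%, a log2 fold change of -0.66 ± 0.035 (edgeR adjusted p = 1.55e-25). By p-value Kmt2d ranked 5 of 13427 autosomal genes. Its gene spans 15:98831669-98871204 on the minus strand and has the longest exon sequence of the called members that fell, 19.9 kb.

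Kmt2b, which trimethylates H3K4 at CpG-rich promoters, also fell, from 194 and 190 to 169 and 162 CPM (-0.21 ± 0.036, edgeR adjusted p = 1.79e-06). Setd1b, a catalytic subunit of COMPASS, was at 208 and 207 against 198 and 189 CPM (-0.10), and its call was lost in DESeq2 and without mock 1, mock 2 or BMH21 2. The other Kmt2 gene that changed, Kmt2e, rose: it was at 131 and 132 CPM in mock and 190 and 187 CPM in BMH21 (0.52 ± 0.037, edgeR adjusted p = 4.30e-19). Kmt2e (MLL5) reads H3K4 methylation and has no known H3K4 methyltransferase activity. Srpk2 overlaps 972 bases of its exons on the opposite strand. Kmt2a and Kmt2c were low, at 2.00 to 2.62 and 7.76 to 9.10 CPM, and were not called.

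Of the 3 Nsd genes, which write H3K36 dimethylation, 2 were higher and 1 was not called. Nsd2 stood at 302 and 299 against 351 and 365 CPM (0.25 ± 0.029, edgeR adjusted p = 7.74e-11), and Nsd3 at 56.0 and 54.6 against 67.4 and 69.6 CPM (0.31 ± 0.058, edgeR adjusted p = 1.75e-05). Nsd1 was at 41.5 and 36.9 against 43.5 and 42.9 CPM and was not called (edgeR adjusted p = 0.158). Setd2, which writes H3K36 trimethylation, was not called either, at 308 and 309 against 299.5 and 288 CPM (-0.07, edgeR adjusted p = 0.0689). The means of Nsd2 and Nsd3 were 19.0% and 23.7% above mock, and both libraries of Setd2 lay slightly below it.

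Setd3, best known as an actin histidine methyltransferase, was at 162 and 169 against 194 and 197 CPM (0.24 ± 0.036, edgeR adjusted p = 1.09e-07). Other genes, most often Gm14026, share 37.6% of its 50-base words. Setd5, a SET domain protein of debated catalytic activity, was at 81.0 and 85.7 against 99.1 and 104 CPM (0.29 ± 0.049, edgeR adjusted p = 1.77e-06). Dot1l, the H3K79 methyltransferase and the top methyltransferase by CPM per kb (59.3), was at 536 and 537 against 500 and 491 CPM, so that it fell by 7.59% (-0.11 ± 0.025, edgeR adjusted p = 2.15e-04). Of the H4K20 enzymes, Kmt5c fell from 12.9 and 13.9 to 9.33 and 10.5 CPM (-0.43, edgeR adjusted p = 0.00562; not called without mock 2 or BMH21 1), and Kmt5a and Kmt5b were not called. The other methyltransferases not called were Setd1a, Setd4, Setd6, Setd7 and Setdb2, with log2 fold changes from -0.45 to 0.05. For Setd1a, 54.0% of the 50-base words are shared with other genes, most often Gm49388.

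**Figure D4:**
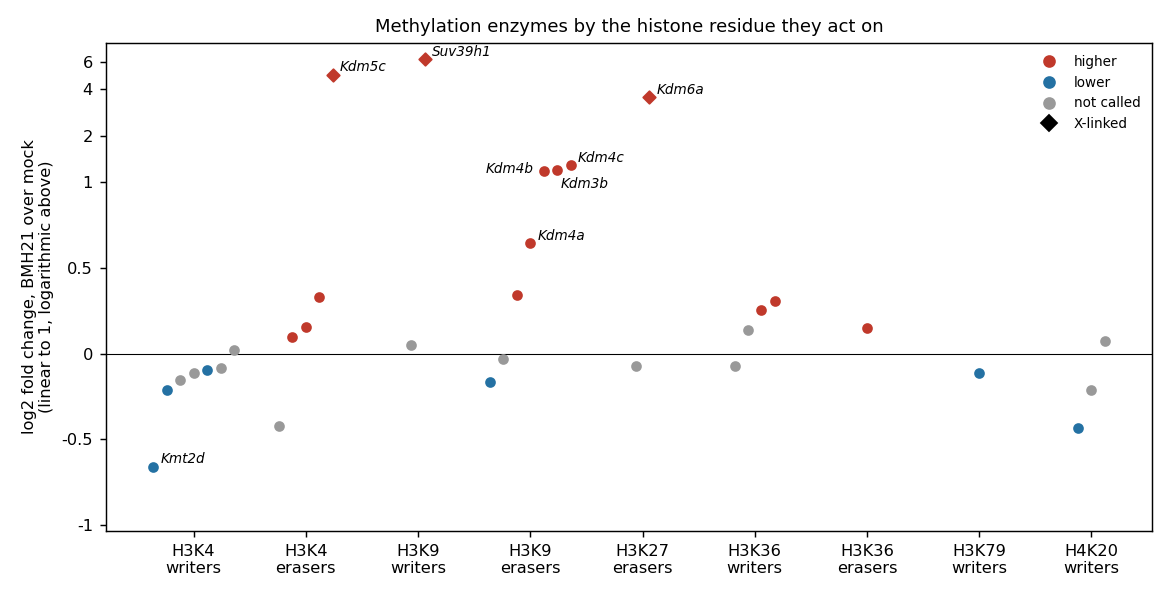
Log2 fold change of BMH21 over mock (linear to 1, logarithmic above) for the methylation enzymes grouped by the histone residue they write or erase, 1 point per gene, coloured by call, with diamonds for X-linked genes. H3K4 writers lie at or below 0 except Kmt2c at 0.02, and 3 of the H3K9 erasers exceed 1. Above 0 lie 4 of 5 H3K4 erasers, among them X-linked Kdm5c.

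Grouped by residue, H3K4 had 0 of 7 writers higher and 3 lower (0 and 4 at an unadjusted p under 0.05, 0 and 2 in DESeq2), and 4 of 5 erasers higher with 0 lower, also at an unadjusted p under 0.05 and in DESeq2. Over all genes 16.5% were higher and 12.5% lower. The 4 H3K4 erasers that rose include X-linked Kdm5c (log2 fold change 4.97), which moved with the tested genes of its chromosome. The others were Kdm5a (0.33), Kdm1a (0.16) and Kdm5b (0.10). The median log2 fold change was -0.11 over the H3K4 writers and 0.16 over the erasers with Kdm5c, where all autosomal genes had -0.01. For H3K9, 5 of 7 member erasers were higher and 1 lower, and 1 of 2 member writers was higher, that being Suv39h1. These groups hold few genes, members by the name rule alone, and were given no test of their own. Of related genes outside the rule, Phf2 was called higher (0.54) and Jmjd1c lower (-0.28), and Ehmt1, Ehmt2 and Suv39h2 were not called. With upper quartile factors the counts were 0 higher and 4 lower for the H3K4 writers, 3 and 0 for the H3K4 erasers and 5 and 2 for the H3K9 erasers.

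PRDM proteins, which carry a SET-like domain beside zinc fingers, were the family with the smallest share of calls: 2 of 9 tested members rose and 0 fell, also at an unadjusted p under 0.05 (1 rose in DESeq2 and without mock 1 or BMH21 1, and the median of 0.01 became -0.03 with upper quartile factors and -0.01 without BMH21 2). The 2 that rose are 22.2% of the tested members, where 15.1% of all autosomal genes were higher and 12.8% lower. Prdm4, a zinc finger transcription factor, was at 25.6 and 26.0 against 32.5 and 32.6 CPM (0.34 ± 0.082, edgeR adjusted p = 8.92e-04). Prdm15, a transcriptional regulator, was at 8.60 and 10.2 against 13.3 and 11.4 CPM (0.39 ± 0.13, edgeR adjusted p = 0.0186), and its call was lost in DESeq2 and without mock 1 or BMH21 1. Prdm2 (RIZ), the most abundant member of the family per kb, was at 348 and 341 against 344 and 352 CPM, with overlapping groups. Prdm8, a repressor, was at 53.0 and 53.1 against 53.6 and 53.0 CPM. Prdm6, Prdm10, Prdm11 and Prdm16 were at 0.0477 to 10.05 CPM and were not called.

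Of the Hdac genes 3 of 8 rose and 0 fell (37.5% and 0%), and of the sirtuins 0 of 7 rose and 4 fell (0% and 57.1%), where 15.1% of all autosomal genes were higher and 12.8% lower. The other 5 Hdac genes and 3 sirtuins were not called, and the difference between the classes was not tested. The median log2 fold change was 0.06 for the Hdac genes and -0.25 for the sirtuins. With upper quartile factors the counts were 2 and 1 for the Hdac genes and 0 and 6 for the sirtuins. In DESeq2 they were 2 and 0, and 0 and 2. Without mock replicate 2 or BMH21 replicate 2 only 1 Hdac gene was called. Only 1 sirtuin was called without mock replicate 1, 2 without mock replicate 2 and 2 without BMH21 replicate 2. At an unadjusted p under 0.05, 0 Hdac genes were lower and 0 sirtuins higher.

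Hdac2, a catalytic subunit of the NuRD, Sin3 and CoREST complexes, had the largest rise of these. It was at 18.8 and 18.3 CPM in mock and 29.6 and 34.7 CPM in BMH21, 1.74-fold higher, or 0.80 ± 0.091 on the log2 scale (edgeR adjusted p = 5.49e-11). Its close paralog Hdac1, the member ranked 2 by CPM per kb, was not called at 344 and 329 against 327 and 329 CPM (-0.04 ± 0.029, edgeR adjusted p = 0.375). For Hdac1, 58.7% of the 50-base words are shared with other genes, most often Gm10093. Per kilobase of exon Hdac1 was the more abundant of the pair in both conditions, at 97.7 and 95.3 CPM per kb against 4.14 and 7.19 for Hdac2 (group means). Hdac3, the enzyme of the NCoR and SMRT complexes, was at 44.6 and 45.1 against 50.2 and 53.0 CPM (0.20, edgeR adjusted p = 0.0135), and Hdac10, a polyamine deacetylase, at 10.9 and 9.73 against 12.8 and 14.4 CPM (0.40, edgeR adjusted p = 0.0112). Both lost the call without mock 2 or BMH21 2, Hdac3 also without mock 1 and with upper quartile factors, and Hdac10 also in DESeq2. Hdac4, Hdac5, Hdac9 and Hdac11 were not called, with log2 fold changes from -0.30 to 0.16.

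Sirtuins are NAD-dependent deacylases. Sirt1, nuclear and needed in spermatogenesis, was at 82.0 and 84.2 CPM in mock and 60.8 and 71.6 CPM in BMH21 (-0.33 ± 0.057, edgeR adjusted p = 3.72e-06). Both treated libraries were lower, although they differed from each other by more than the mock libraries did. Sirt3, mitochondrial, was at 155 and 148 against 137 and 138 CPM (-0.15, edgeR adjusted p = 0.00261; not called without mock 1). Ric8a and Psmd13 overlap 760 bases of its exons on the opposite strand. Sirt6, a chromatin deacetylase of H3K9 and H3K56, was at 2.96 and 2.88 against 1.69 and 1.54 CPM (-0.85 ± 0.28, edgeR adjusted p = 0.0158). Sirt7, a nucleolar enzyme known as an activator of RNA polymerase I transcription, was at 5.20 and 5.50 against 4.02 and 3.18 CPM (-0.57 ± 0.20, edgeR adjusted p = 0.0213). The calls of Sirt6 and Sirt7 were lost in DESeq2 and on leaving out any library other than BMH21 1. Sirt2 (-0.10, edgeR adjusted p = 0.0598) and Sirt4 (-0.25, edgeR adjusted p = 0.0716) just missed the threshold, and Sirt5 had 0.17 with overlapping groups. For Sirt5, 36.2% of the 50-base words are shared with other genes, most often Xpnpep1.

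Of the acetyltransferases 3 of 10 rose and 0 fell, where 15.1% of all autosomal genes were higher and 12.8% lower. Their median log2 fold change was 0.02. At an unadjusted p under 0.05, 1 acetyltransferase was lower. In DESeq2 2 rose and 0 fell, with upper quartile factors 2 rose and 1 fell, and without BMH21 replicate 2 there was 1 each way. Kat6a (MOZ), an H3K23 and H3K9 acetyltransferase, was at 29.2 and 27.8 against 37.0 and 36.5 CPM (0.36 ± 0.079, edgeR adjusted p = 1.68e-04). Kat14, a subunit of the ATAC complex, was at 12.2 and 11.8 against 14.9 and 17.8 CPM (0.44 ± 0.12, edgeR adjusted p = 0.00186). It was not called without BMH21 2, and 17.2% of its 50-base words are shared with other genes, most often Pet117. Ep300, the H3K27 acetyltransferase p300, was at 48.9 and 55.7 against 57.0 and 61.8 CPM (0.19 ± 0.064, edgeR adjusted p = 0.0188), a gap between groups smaller than that between replicates. Its call was lost in DESeq2, with upper quartile factors and without mock 1 or BMH21 2.

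Kat7 (HBO1), an acetyltransferase of H3K14 and H4, had the highest CPM per kb of all members (137). It was at 770 and 770 against 732 and 756 CPM and was not called (-0.05 ± 0.023, edgeR adjusted p = 0.104). Kat5 (TIP60), ranked 4 by CPM per kb, was at 217 and 211 against 219 and 223 CPM, and Kat8 (MOF), the H4K16 acetyltransferase ranked 8, at 122 and 125 against 124 and 120 CPM. Crebbp, Kat2a, Kat2b and Kat6b were not called, with log2 fold changes from -0.10 to 0.08.

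**Figure D5:**
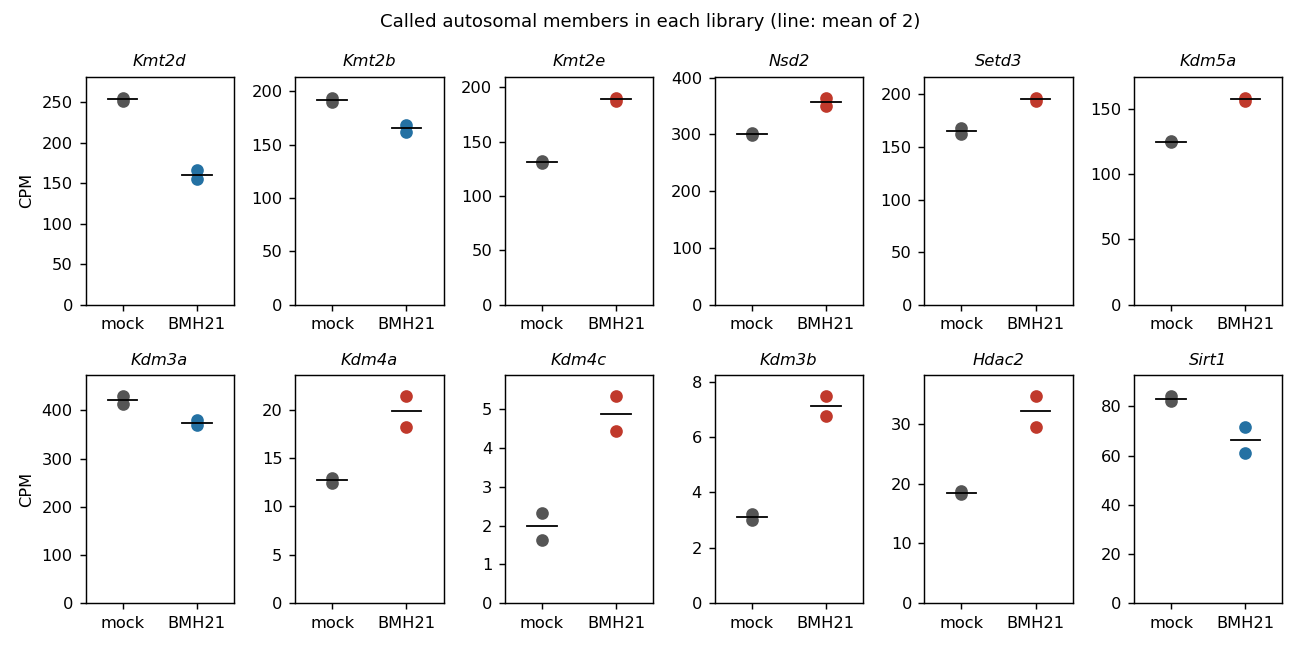
CPM in each library for 12 called autosomal members, with 2 mock points (dark grey) and 2 BMH21 points (red where higher, blue where lower) per gene, a line at each group's mean and each axis starting at 0. The groups do not overlap in any panel, as in 52 of the 73 tested members and 8397 of all 13793 tested genes. Ratios of means are largest in Kdm4c, Kdm3b and Hdac2 among the genes that rose and in Kmt2d among those that fell.

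Summed within a family on the scale of CPM per kb, autosomal levels differed little: demethylases differed by 1.65% between the group means, methyltransferases by -0.12%, PRDM genes by 3.22%, deacetylases by -3.11% and acetyltransferases by -0.50%. With the sex-linked genes the demethylases were 9.41% and the methyltransferases 14.4% above mock. By rank in CPM per kb among the 76 members, Suv39h1 moved from 61 in mock to 10 in BMH21, Kdm5c from 56 to 18, Uty from 75 to 57 and Kdm6a from 73 to 68.

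The called autosomal members differed in gene length. The 22 that rose had a median exon length of 9.62 kb and a median genomic span of 70.0 kb, with 6 under 50 kb. The 10 that fell had medians of 7.10 kb and 23.2 kb, with 9 under 50 kb, and the 37 not called 6.09 kb and 38.9 kb. Over all autosomal genes the median exon length was 5.16 kb for those called higher, 4.79 kb for those called lower and 4.001 kb for those not called. Genomic span was not measured over all autosomal genes, so the members' spans have no background here. These are descriptions with no test, and longer mRNAs also collect more counts.

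Of the enzymes' partners and related genes, 128 were listed and 124 tested: 31 were higher and 20 lower (22 and 31 with upper quartile factors), 25.0% and 16.1% of those tested, next to the 16.5% and 12.5% of all genes. On autosomes 26 of 117 were higher and 20 lower (17 and 31 with upper quartile factors). Of 7 tested X-linked partners 5 were higher, 71.4%, close to the 73.2% of all tested X-linked genes. Hcfc1, a subunit of KMT2 and SET1 complexes, was at 2.76 and 3.71 CPM in mock and 206 and 208 CPM in BMH21. Msl3, of the MSL complex that holds Kat8, was at 2.55 and 2.21 against 91.0 and 92.1 CPM, and Morf4l2, of the NuA4 complex, at 1.62 and 2.21 against 45.9 and 52.0 CPM. Zmym3, of a CoREST-type complex, was at 2.15 and 1.15 against 33.1 and 28.3 CPM, and Rbbp7, a histone-binding subunit of NuRD and Sin3, at 0.429 and 0.256 against 13.9 and 13.4 CPM. For these 5 genes the log2 fold changes ran from 4.17 to 6.02. Jade3 (0.286 and 0.256 against 0.845 and 0.621 CPM) and the demethylase Phf8 (0.906 and 1.22 against 1.63 and 1.92 CPM) were higher in both BMH21 libraries but not called, with edgeR adjusted p = 0.0930 and 0.130. Tbl1x had too few counts to be tested.

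Among KMT2 and COMPASS partners 4 of 16 rose and 1 fell. On autosomes 3 of 15 rose and 1 fell, 20.0% and 6.67%, against 15.1% and 12.8% of all autosomal genes. Men1 (menin) was at 80.3 and 83.2 against 109 and 105 CPM (0.39), Psip1 at 914 and 901 against 975 and 995 CPM (0.12) and Wdr5, a core subunit, at 46.9 and 45.8 against 57.9 and 56.1 CPM (0.30). Pagr1a, a subunit particular to the complexes of Kmt2c and Kmt2d, fell from 11.8 and 11.7 to 7.94 and 9.04 CPM (-0.47, edgeR adjusted p = 0.00489; not called without BMH21 1). Among acetyltransferase partners 10 of 43 rose and 9 fell (4 and 13 with upper quartile factors), 23.3% and 20.9%. On autosomes 8 of 40 rose and 9 fell, 20.0% and 22.5%, against 15.1% and 12.8% of all autosomal genes. Brd1, which scaffolds Kat6a, Kat6b and Kat7, was at 143 and 138 against 194 and 193 CPM (0.46), the large scaffold Trrap at 201 and 194 against 231 and 231 CPM (0.23), and Epc2 of NuA4 at 29.7 and 29.4 against 19.4 and 20.1 CPM (-0.58). Among deacetylase partners 12 of 36 rose and 7 fell (10 and 11 with upper quartile factors), 33.3% and 19.4% of those tested. On autosomes 10 of 34 rose and 7 fell, 29.4% and 20.6%, against 15.1% and 12.8% of all autosomal genes. The 12 include X-linked Zmym3 and Rbbp7, and the autosomal genes with the smallest p were Phf21a (log2 fold change 0.36), Mier3 (0.27) and Phf12 (0.34). Among the other histone-modifying enzymes 5 of 29 rose and 3 fell (4 and 6 with upper quartile factors, 3 and 3 in DESeq2 or without mock replicate 1, 4 and 5 without BMH21 replicate 1). These are 17.2% and 10.3% of those tested, close to the 16.5% and 12.5% of all genes. Phf2, an H3K9 demethylase, was at 218 and 211 against 311 and 313 CPM (0.54 ± 0.031, edgeR adjusted p = 8.48e-24), Smyd4 at 2.53 and 2.18 against 7.16 and 7.75 CPM (1.66) and Ash1l, an H3K36 methyltransferase, at 128 and 132 against 103 and 107 CPM (-0.31).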

How the data were processed

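Gene expression was measured by RNA-seq of pachytene spermatocytes. Per the labels' protocols the library kit keeps strand and selects mRNA. The submitters' processing notes name fastp, STAR, SAMtools, featureCounts, DESeq2 and, as genome build, mm10. Strand and multi-mapping settings are not given in the sources used here. The authors deposited raw counts for 15733 genes, which entered all tests. The size-factor-scaled signal, the log2 fold changes with their errors, the Wald score and the p-values were made by the authors with DESeq2, per the file headers, and only the log2 fold changes named as theirs are printed. At an adjusted p under 0.05, 21 members were higher and 7 lower in the authors' deposited table.

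Genes were kept with filterByExpr (minimum count 10), scaled by TMM and tested with edgeR 4.0.16 in R 4.3.3 (quasi-likelihood, group alone, Benjamini-Hochberg over 13793 genes). The SE is the log2 fold change over the square root of F, an approximation. The common biological coefficient of variation was 4.09%. Libraries held 30964370 to 41548269 counts. Intervals and the limit that a count of 0 allows cover counting error only. Coordinates, exon lengths and overlaps are those of GENCODE M21 (GRCm38), matched by identifier for 15670 genes. Only 369 of the table's own positions were identical, so none was printed. Shared 50-base words are those of a member's longest coding transcript found in any other gene's transcripts. The gene named beside them has the most matches, counted over all its transcripts.

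The members and lists were chosen with earlier results of these data known. Named in full were the sex-linked members, up to 6 called autosomal members per family by p, the top member by CPM per kb, 1 to 3 abundant members not called, paralogs and, among partners, X-linked genes and up to 3 called genes per list. Other members are named to account for the list, except 1 that is counted but not reported here. Alternatives were RLE, upper quartile and autosomal TMM factors, no filter, a minimum count of 50, DESeq2 1.42.0, a replicate block and leaving out each library. Replicate numbers were not taken as pairs, since only 2 are shared and nothing ties them to 1 animal.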

Additional observations from a re-analysis of the deposited data

How the results depend on the processing

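Of the 36 called members, 23 kept their call (18 higher and 5 lower) under all 11 alternatives, 6 lost it in DESeq2 and 3 with upper quartile factors. The number of members called lower was 10, but 18 with upper quartile factors and 6 to 11 on leaving out each library, with 6 without mock replicate 1 and 6 without mock replicate 2. The number called higher was 21 to 24 on leaving out each library. Partners called lower went from 20 to 31 with upper quartile factors. With the replicate block 26 members were higher and 10 lower, and 31 and 20 partners. The correlation of same-numbered deviations was 0.0125, and the block changed no member's call. Directions turned only in members that were not called. With upper quartile factors the log2 fold change was -0.025 for Kmt2c, -0.032 for Prdm2 and -0.038 for Prdm8. Prdm10 was at 0.0024 with autosomal TMM factors and 0.00026 with no filter, and Setd4 at 0.0016 with the replicate block. Leaving out each library gave log2 fold changes of -0.15 to 0.013 for Hdac4, -0.14 to 0.019 for Kat2b, -0.039 to 0.0073 for Kat8, -0.24 to 0.071 for Kdm8, -0.30 to 0.058 for Kmt2a. The same ranges were -0.10 to 0.13 for Kmt2c, -0.11 to 0.11 for Prdm10, -0.0064 to 0.031 for Prdm2, -0.14 to 0.21 for Prdm6. They were -0.0014 to 0.012 for Prdm8, -0.11 to 0.12 for Setd4, -0.38 to 0.33 for Setd7, -0.035 to 0.13 for Setdb2, -0.0027 to 0.35 for Sirt5. Per length or not, the sex-linked share in BMH21 was 26.9% or 14.0% for Kdm5c, 33.0% or 39.8% for Kdm6a and Uty, and 97.4% or 97.8% for Suv39h1, an alternative chosen after seeing the data. Members of a few CPM rest on few counts, so only large changes can be called there. The cause of these shifts was not tested.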
